A study of Mus musculus with 2 samples.

Results

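A set of 10 genes of glucose use and of the response to low oxygen was followed across the cells of the healing infarct: Slc2a1, Hk2, Pfkfb3, Aldoa, Pgk1, Eno1, Ldha, Bnip3, Hilpda and Adm. They were chosen with earlier results of these data known and taken by symbol from both matrices, and these 10 genes fill 11 of the 32287 feature rows. Aldoa has 2 rows, which were summed; the row ENSMUSG00000114515 held 4 UMIs in GFPhi and 12 in GFPlo. The mice carried p16-2A-CreER;R26-mTmG, in which the p16 locus drives a tamoxifen-inducible Cre and recombined cells turn from membrane tomato to membrane GFP. All received a myocardial infarction (MI) and tamoxifen by gavage at day 5, and the infarct was taken at day 7. Cardiomyocytes were spun out, and the remaining cells were sorted into GFPhi (labelled elsewhere as GFP+) and GFPlo (labelled as GFP−), with 1 library of each. There was no uninjured or untreated group, the labels used here do not give the number or age of the animals, and GFP marks cells that expressed p16 around day 5, not necessarily at harvest. With 1 library per group no test between groups is possible, and every interval below covers counting error only.

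Glucose enters cells through transporters such as the one encoded by Slc2a1, is phosphorylated by hexokinases and is then split and oxidised to pyruvate, which lactate dehydrogenase turns into lactate when oxygen is short or flux is high. Many of these enzymes are transcribed under the hypoxia-inducible factors HIF-1 and HIF-2, which bind a short DNA element often with the core ACGTG. The same factors also drive genes outside glycolysis, among them Bnip3 (mitochondrial turnover), Hilpda (lipid droplet storage) and Adm (a vasoactive peptide). In the infarct, supply of oxygen falls while macrophages, fibroblasts and vessels expand.

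Because the 10 genes are commonly grouped as targets of these factors, the letters ACGTG were looked for in their promoters. Promoter windows from RefSeq (build GRCm38.p6, 250 bases before to 50 after each annotated start) matched all 10 genes, with 17 windows. The 5 letters ACGTG, searched on both strands, were found in 8 of the 10 genes and in 58.8% of their windows, against 19.6% of all 32851 windows. Counted by gene, 21.8% of 27025 genes had a match in any window. Adm and Eno1 had no ACGTG in theirs, and other forms of the element were not searched. The palindrome CACGTG matches on both strands, and a match is only a match of letters. The 250 bases before the start are given 5′ to 3′ for 4 genes with matches and for Adm, which has none and ranged widely among the cells. Capitals mark ACGTG or its reverse complement CACGT. The stretches lie at chr7:46845554-46845803 (Ldha, plus strand), chrX:106186850-106187099 (Pgk1, plus), chr7:138909507-138909756 (Bnip3, minus), chr6:82774455-82774704 (Hk2, minus) and chr7:110627407-110627656 (Adm, plus).
Ldha: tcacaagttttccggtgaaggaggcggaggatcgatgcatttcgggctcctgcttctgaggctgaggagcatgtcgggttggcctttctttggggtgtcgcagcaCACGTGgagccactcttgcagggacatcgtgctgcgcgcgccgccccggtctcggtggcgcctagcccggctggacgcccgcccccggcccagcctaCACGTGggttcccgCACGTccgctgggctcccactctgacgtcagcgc
Pgk1: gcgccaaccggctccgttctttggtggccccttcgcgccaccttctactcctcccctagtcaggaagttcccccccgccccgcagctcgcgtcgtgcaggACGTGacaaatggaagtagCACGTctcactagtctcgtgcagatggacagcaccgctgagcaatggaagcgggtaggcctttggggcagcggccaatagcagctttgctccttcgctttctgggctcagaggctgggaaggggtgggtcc
Bnip3: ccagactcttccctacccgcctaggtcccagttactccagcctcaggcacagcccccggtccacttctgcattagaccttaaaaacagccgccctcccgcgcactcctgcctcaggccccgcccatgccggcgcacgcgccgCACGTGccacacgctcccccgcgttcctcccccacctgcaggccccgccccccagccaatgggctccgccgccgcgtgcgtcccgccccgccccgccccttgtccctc
Hk2: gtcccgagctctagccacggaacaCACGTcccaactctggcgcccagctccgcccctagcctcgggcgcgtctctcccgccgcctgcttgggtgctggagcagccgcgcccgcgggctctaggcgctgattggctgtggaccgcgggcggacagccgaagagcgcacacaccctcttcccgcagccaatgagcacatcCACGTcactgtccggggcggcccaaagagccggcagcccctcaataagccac
Adm: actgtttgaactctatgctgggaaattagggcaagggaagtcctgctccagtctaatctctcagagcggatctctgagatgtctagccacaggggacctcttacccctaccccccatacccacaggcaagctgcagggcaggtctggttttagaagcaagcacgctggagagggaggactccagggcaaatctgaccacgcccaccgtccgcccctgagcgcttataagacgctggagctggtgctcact

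The Ldha stretch held 3 runs of capitals, 2 of them palindromes, and the Bnip3 stretch held 1 palindrome. The Pgk1 and Hk2 stretches each held 2 runs, none of them a palindrome.

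GFPhi held 10430 barcodes with 91343549 UMIs and GFPlo 12344 with 104855204, and 10125 and 11959 cells passed the filter, with medians of 6899 and 7712 UMIs. The libraries shared 94 barcodes. Gates on marker UMIs assigned 8393 GFPhi cells (82.9%) and 10056 GFPlo cells (84.1%); the 1732 and 1903 ungated cells had medians of 1351 and 1404 UMIs. GFPhi was mostly macrophages (7341 cells) and GFPlo mostly fibroblasts (7079), so a class often rests on a single library. The other library held 335 GFPhi fibroblasts and 38 GFPlo macrophages, and the latter were too few to compare. Mesothelial cells numbered 386 and 1324, endothelial cells 181 and 700, and lymphatic endothelial cells 78 and 227 in GFPhi and GFPlo. T and NK cells numbered 440 and mural cells 131 in GFPlo. Macrophage markers in the other GFPhi classes stood at 1.17% to 2.12% of their level in macrophages, and no doublet caller was run. Fibroblast markers summed to 3636 CPM in GFPlo endothelial and 1229 CPM in GFPlo lymphatic endothelial cells, against 34273 CPM in GFPlo fibroblasts. Mesothelial cells, gated without a limit on fibroblast markers, had 14641.5 CPM of them in GFPhi and 19256.9 CPM in GFPlo. Resident-gated macrophages were led by haemoglobin genes beside their own markers, and MHC class II macrophages by immunoglobulin genes.

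Levels are in CPM, the UMIs of a gene scaled to the same total of UMIs in every population, with exact 95% Poisson intervals, and ratios carry exact conditional 95% intervals. A gene was measured where either side had at least 10 CPM, and it is called higher or lower where the whole interval lay beyond 1.5-fold. Across cell classes Hilpda, Hk2, Adm and Pfkfb3 stood out by cell type. In GFPhi, Pfkfb3 was at 21.6 CPM in macrophages and 25.6 CPM in endothelial cells, against 5.17 and 5.40 CPM in fibroblasts and mesothelial cells. Hilpda was highest in macrophages at 145 CPM (142 to 148), Hk2 was at 4.60 and 7.23 CPM in GFPhi and GFPlo endothelial cells against 114 to 149 CPM in fibroblasts and mesothelial cells, and Adm ranged from 0.602 CPM in macrophages to 97.6 CPM in GFPhi lymphatic endothelial cells. Ldha, Eno1 and Pgk1 varied less between classes outside T and NK cells, and were higher in cycling cells of each of the 3 classes in which these could be compared. Between GFPhi and GFPlo cells of the same class, 1 member in 1 class was called.

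**Figure D1:**
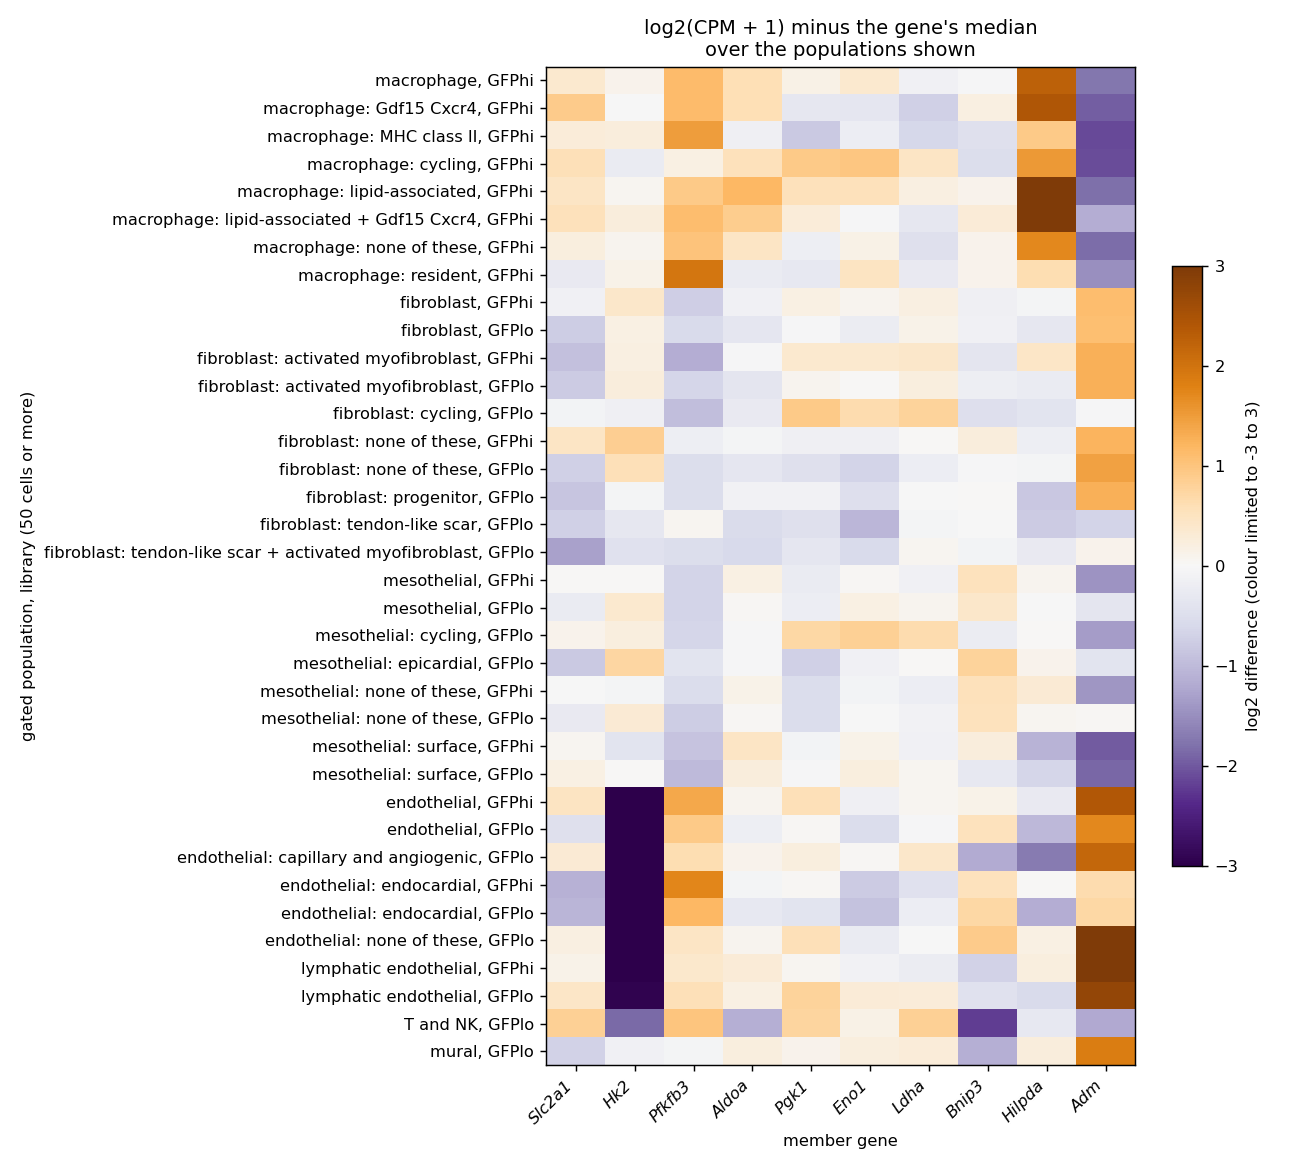
Each square gives log2(CPM + 1) of a member (columns) in a gated population of at least 50 cells (rows) minus that gene's median over the populations shown, with colour limited to 3 in each direction. Hilpda is high in the macrophage rows, and Hk2 is low in the endothelial and lymphatic endothelial rows. Adm is highest in the GFPhi lymphatic endothelial row and low in the macrophage rows. Its endothelial rows lie above the median, with the endocardial ones (0.644 and 0.711) below most fibroblast rows. Its mesothelial rows lie below the median except GFPlo cells in no subset gate (0.024).

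Against the other gated GFPhi cells, macrophages had 2 of 9 measured members higher, where 16.4% of all measured genes were, and 0 lower, where 33.9% were. The median ratio was 1.25 for the members and 0.80 for all 9206 genes. GFPhi fibroblasts had 1 of 10 higher (23.6% of genes) and 3 lower (18.1%), and GFPlo fibroblasts 0 of 9 higher (9.99%) and 0 lower (16.8%). GFPhi mesothelial cells had 0 of 9 higher (25.7%) and 2 lower (19.0%), and GFPlo mesothelial cells 0 of 9 higher (12.6%) and 1 lower (14.3%). Endothelial cells had 1 of 10 higher (27.1%) and 2 lower (12.6%) in GFPhi, and 1 of 9 higher (17.1%) and 1 lower (11.3%) in GFPlo. Lymphatic endothelial cells had 1 of 10 higher (26.5%) and 2 lower (13%) in GFPhi, and 2 of 10 higher (18.4%) and 1 lower (13.3%) in GFPlo. T and NK cells of GFPlo had 4 of 9 higher (25.8%) and 3 lower (26.4%). These counts of 0 to 4 members lay on both sides of the shares of all genes, and which member was called differed between classes. In GFPhi the other gated cells are mostly macrophages, so the low Hilpda and Pfkfb3 of fibroblasts and mesothelial cells are the same contrast seen from the other side.

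Slc2a1 (chr4:119108711-119137983, plus strand, mm10) encodes GLUT1, the widely expressed glucose transporter. Its level was 17.5 CPM (16.5 to 18.6) in macrophages, 12.1 (9.64 to 15.0) and 7.45 (6.81 to 8.14) in GFPhi and GFPlo fibroblasts, and 13.4 (11.3 to 15.7) and 11.2 (9.83 to 12.7) in mesothelial cells. Endothelial cells had 19.1 CPM (12.8 to 27.4) in GFPhi and 9.43 (6.36 to 13.5) in GFPlo, so their intervals overlapped only narrowly, and lymphatic endothelial cells had 14.8 and 18.3 CPM with wide overlap. T and NK cells, at 24.5 CPM (18.4 to 32.0), were the only class called, 2.81 times (2.09 to 3.70) the other gated GFPlo cells. The 45 gated neutrophils, too few to compare, held 7 Slc2a1 UMIs, or 70.7 CPM (28.4 to 146). Inside classes no subset passed. Endocardial-gated cells had 5.60 and 5.90 CPM in GFPhi and GFPlo, 0.212 times (0.041 to 0.693) and 0.376 times (0.165 to 0.825) the other endothelial cells. These values rest on 3 and 12 UMIs.

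Hk2 (chr6:82725025-82774454, minus strand) encodes hexokinase 2, the inducible form that traps glucose at the start of glycolysis. It was nearly even among macrophages (120 CPM, 117 to 123), GFPhi and GFPlo fibroblasts (149 and 126), mesothelial cells (114 and 146) and mural cells (103). Endothelial cells stood apart with 4.60 CPM (1.85 to 9.48) in GFPhi, from 7 UMIs, and 7.23 CPM (4.58 to 10.8) in GFPlo, from 23 UMIs. Macrophage RNA at the level of the macrophage markers there would carry 2.00 CPM of the GFPhi value. The part of fibroblast RNA in the GFPlo value was not tested. The levels are 0.038 times (0.015 to 0.079) and 0.057 times (0.036 to 0.086) the other gated cells of the same library. Lymphatic endothelial cells were also low, at 12.4 and 13.7 CPM and ratios of 0.104 (0.050 to 0.191) and 0.111 (0.069 to 0.170). The intervals of the 2 lymphatic levels overlapped those of blood endothelium in the same library. An Hk2 UMI was seen in 2.76% of GFPhi and 2.57% of GFPlo endothelial cells, with medians of 5953 and 4024 UMIs per cell, against 51.8% of macrophages at a median of 7181. With every cell thinned to 1000 UMIs, the shares were 0.726% in GFPlo endothelial cells and 10.4% in GFPlo fibroblasts. Hk1, the constitutive hexokinase, went the other way, at 46.7 CPM in GFPhi and 50.6 CPM in GFPlo endothelial cells, 2.55 times (1.98 to 3.24) and 2.22 times (1.88 to 2.60) the other cells. Hk3, known from myeloid cells, was 58.4 times (32.5 to 117) higher in macrophages, at 31.3 CPM. T and NK cells also had low Hk2, with 29.97 CPM and 0.241 times (0.187 to 0.307) the others.

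Pfkfb3 (chr2:11471433-11554077, minus strand) encodes the enzyme that makes fructose 2,6-bisphosphate, an activator of phosphofructokinase. It was about level between macrophages (21.6 CPM, 20.5 to 22.8), GFPhi endothelial cells (25.6, 18.2 to 35.0), GFPlo endothelial cells (18.5, 14.1 to 23.9) and T and NK cells (19.5, 14.1 to 26.3), whose intervals overlap. Fibroblasts had 5.17 and 5.91 CPM and mesothelial cells 5.40 and 5.42 CPM in GFPhi and GFPlo, all below the former group with no overlap. The macrophage ratio to the other gated GFPhi cells was 2.95 (2.49 to 3.52), the GFPlo endothelial ratio 2.91 (2.19 to 3.80) and the T and NK ratio 3.01 (2.16 to 4.11). Within macrophages resident-gated cells had the most, 38.7 CPM (33.6 to 44.3), 1.94 times (1.66 to 2.25) the other macrophages, followed by MHC class II cells with 27.6 CPM (24.2 to 31.5). Lipid-associated cells had 18.5 CPM and cycling cells 10.6 CPM, the latter 0.461 times (0.362 to 0.580) the rest. Its relative Pfkfb4 was also higher in macrophages, 6.78 times (5.34 to 8.75), at 23.2 CPM.

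Aldoa (chr7:126795234-126800751, minus strand) encodes the main aldolase, which splits fructose 1,6-bisphosphate. In macrophages it had 426 CPM (421 to 431), and the subsets spread over a wide range. Lipid-associated cells (gated on Mmp12, Gpnmb, Trem2, Cd36 and Fabp5) had 634 CPM (620 to 648), 1.72 times (1.68 to 1.77) the other macrophages. Those that also passed the Gdf15 and Cxcr4 gate had 515 CPM, and Gdf15 Cxcr4 cells alone had 421. MHC class II and resident cells had 253 CPM (243 to 264) and 237 CPM (224 to 250), which overlap, and ratios of 0.560 (0.535 to 0.586) and 0.533 (0.503 to 0.564). Elsewhere Aldoa lay between 222 and 342 CPM in fibroblasts, mesothelial and endothelial cells of either kind, and at 127 CPM in T and NK cells, 0.528 times (0.467 to 0.594) the others. The GFPhi fibroblast value of 0.633 (0.603 to 0.664) passed narrowly, and without cells holding 2 or more cycling markers it no longer passed.

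Of macrophage subsets, lipid-associated cells had 2 of 9 members higher (1.90% of genes) and 0 lower (12.5%), the members being Aldoa and Hilpda. MHC class II cells had 0 of 9 higher (3.11%) and 3 lower (5.11%), which were Pgk1, Aldoa and Hilpda. Resident cells had 1 of 9 higher (16.2%) and 2 lower (4.53%). Cells in both the lipid-associated and the Gdf15 Cxcr4 gate had 1 higher (0.939%) and 0 lower (6.27%), and Gdf15 Cxcr4 cells alone had 0 higher (0.440%) and 0 lower (2.24%). The median member ratio was 1.20 in lipid-associated cells, where that of all genes was 0.86, and 0.67 in MHC class II cells, where it was 0.94. The medians of the other glycolytic enzymes were 1.38 and 0.59. In lipid-associated cells 3 of 10 measured of 13 were higher and 0 lower: Hk3 2.28 times (2.08 to 2.50), Pgam1 1.92 times (1.86 to 1.99) and Pkm 1.72 times (1.66 to 1.78). In MHC class II cells 0 were higher and 6 of 10 lower, among them Hk3 0.329 times (0.264 to 0.406), Pgam1 0.398 times (0.371 to 0.427), Pkm 0.437 times (0.410 to 0.466) and Tpi1 0.579 times (0.540 to 0.620). Median UMIs per cell were 9928 in lipid-associated and 5992 in MHC class II cells. The summed level of 12 early-response and heat-shock genes known to rise during tissue dissociation was 7774 CPM in lipid-associated and 12602 CPM in MHC class II cells. Beyond called ratios recomputed after thinning, the part of depth and of these dissociation genes in the member ratios was not tested.

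**Figure D2:**
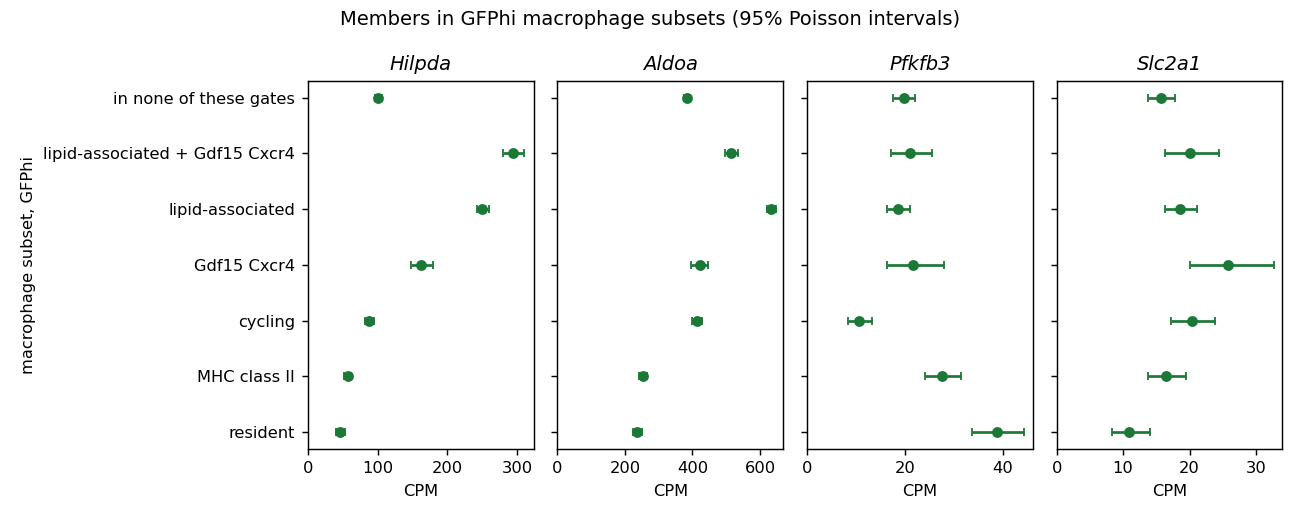
CPM of Hilpda, Aldoa, Pfkfb3 and Slc2a1 in GFPhi macrophage subsets, with points for the pooled level and bars for 95% Poisson intervals. Hilpda runs from 46.4 in resident to 294 in lipid-associated cells with Gdf15 and Cxcr4, and Pfkfb3 is highest in resident cells at 38.7.

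Ldha, Eno1 and Pgk1 catalyse later steps. Ldha (chr7:46841475-46855627, plus strand) makes lactate, Eno1 (chr4:150236721-150248879, plus strand) makes phosphoenolpyruvate, and Pgk1 (chrX:106187100-106203699, plus strand) yields the first ATP of the pathway. Between classes Ldha lay at 227 CPM in macrophages, 285 and 268 in fibroblasts, 225 and 263 in mesothelial cells, and 256 and 240 in endothelial cells of GFPhi and GFPlo. The T and NK cells had 438 CPM (411 to 466), 1.64 times (1.54 to 1.75) the others, and Pgk1 there was 1.77 times (1.57 to 1.99). Both T and NK calls were lost without cells holding 2 or more cycling markers, at 1.28 and 1.29 times. The summed level of the 5 cycling markers was 1542 CPM in those T and NK cells against 165 CPM in GFPlo fibroblasts. Pgk1 in GFPlo lymphatic endothelial cells, at 142 CPM and 1.79 times (1.56 to 2.05), likewise came to 1.29 times without them.

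Cycling cells, with at least 3 of Mki67, Top2a, Birc5, Ccnb2 and Cdk1, were compared with the other cells of their class. Macrophages had 3 of 9 members higher (11.9% of genes) and 2 lower (3.37%), fibroblasts 3 of 9 higher (10.7%) and 1 lower (5.70%), and mesothelial cells 3 of 8 higher (7.29%) and 0 lower (4.10%). The higher members were Pgk1, Eno1 and Ldha in each. Pgk1 was at 155, 154 and 134 CPM in cycling macrophages, fibroblasts and mesothelial cells, 1.90 times (1.78 to 2.03), 2.14 times (1.98 to 2.30) and 2.34 times (2.09 to 2.61) the rest of the class. Eno1 had ratios of 1.65 (1.60 to 1.72), 2.02 (1.93 to 2.11) and 1.78 (1.68 to 1.89), and Ldha of 1.60 (1.54 to 1.67), 1.67 (1.60 to 1.74) and 1.63 (1.54 to 1.74). Aldoa, at an earlier step of the same pathway, was near even, with 0.966 (0.930 to 1.00), 1.05 (0.994 to 1.11) and 0.946 (0.882 to 1.01). Hk2 lay below 1 in each, at 0.772, 0.778 and 0.877, without being called. Of the other glycolytic enzymes, 1 of 10 in macrophages (Gapdh, 1.70 times), 4 of 9 in fibroblasts and 2 of 9 in mesothelial cells (Pgam1, 1.68 times, and Gapdh, 1.63 times) were higher, and 0 were lower. In fibroblasts these were Pgam1 (1.95 times), Tpi1 (1.93 times), Pkm (1.87 times) and Gapdh (1.74 times). The list's median was 1.28, 1.66 and 1.25, and that of all genes 1.07, 1.03 and 1.01. Cycling cells were deeper, with medians of 14232, 16094 and 23140 UMIs, and their summed dissociation genes were lower, at 6405, 3019 and 4718 CPM against 9909, 5571 and 8067 CPM in the whole class. Beyond called ratios recomputed after thinning, the part of depth and of dissociation genes in these ratios was not tested.

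**Figure D3:**
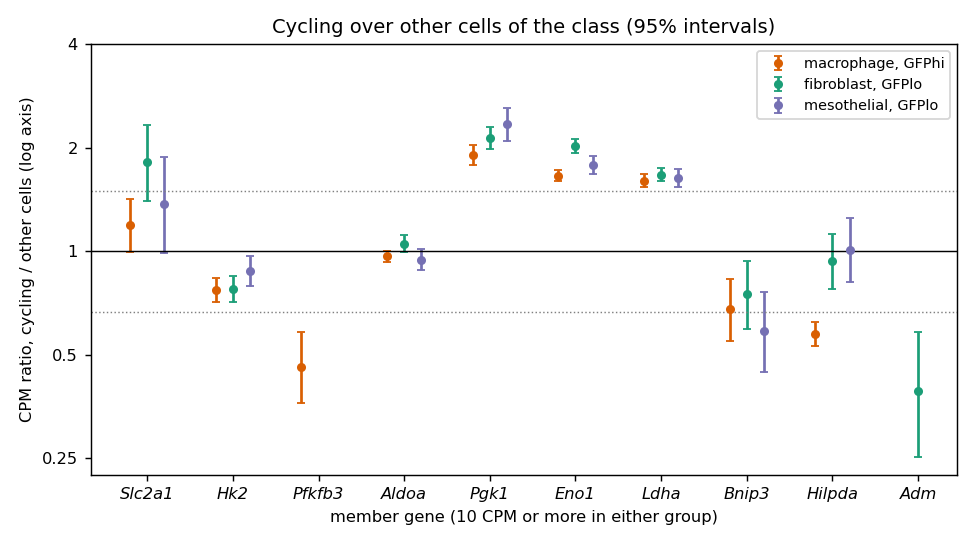
Ratio of CPM in cycling cells to that in the other cells of the class on a log axis, for members with at least 10 CPM on either side, with 95% intervals and dotted lines at 1.5-fold. Pgk1, Eno1 and Ldha lie above the upper line in all 3 classes, and Aldoa lies at 1.

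Fibroblast subsets of GFPlo other than cycling cells gave few calls among the members. Activated myofibroblast cells (Cthrc1, Acta2, Ptn) and progenitor cells (Pi16, Scara5, Cd248, Dpp4) each had 0 of 8 members higher (0.964% and 5.37% of genes) and 0 lower (4.24% and 4.62%). Tendon-like scar cells (Comp, Thbs4, Fmod, Cilp2) had 0 of 8 higher (1.49%) and 2 lower (2.35%). These were Eno1, at 121 CPM (106 to 137) and 0.565 times (0.496 to 0.640), and Adm. The Eno1 value came to 0.623 without cycling cells and then did not pass. Cells in both the tendon-like scar and the myofibroblast gate had 0 of 8 higher (2.09%) and 1 lower (5.17%), which was Adm. In GFPhi myofibroblast cells 0 of 9 members were higher (0.351%) and 0 lower (2.44%).

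Endocardial cells (Npr3, Cgnl1, Cytl1, Plvap), the lining of the heart chambers, had 0 of 9 members higher (7.11%) and 2 lower (11.0%) in GFPlo, and 0 of 9 higher (7.71%) and 1 lower (8.65%) in GFPhi. Eno1 was 0.548 times (0.461 to 0.650) the other endothelial cells in GFPlo and 0.537 times (0.411 to 0.694) in GFPhi, the latter not called. The GFPlo call was lost under a stricter gate (0.613) and without cycling cells (0.583). Of the other glycolytic enzymes, 0 of 9 were higher and 3 lower in GFPhi endocardial cells, and 1 of 10 higher and 3 lower in those of GFPlo. Gapdh, Pkm and Pfkp were the lower genes in both libraries, Pkm by ratios of 0.383 (0.290 to 0.50) in GFPhi and 0.386 (0.322 to 0.463) in GFPlo. The higher gene was Pfkm, a phosphofructokinase subunit, 4.29 times (1.68 to 14.0) from 38 against 5 UMIs, and it was not called without cycling cells. The remaining groups gave no call: 0 of 9 members higher (6.42%) and 0 lower (6.01%) in capillary and angiogenic cells, 0 of 8 (6.88%) and 0 (5.37%) in mural cells, 0 of 8 (2.14%) and 0 (3.44%) in epicardial-gated mesothelial cells, and 0 of 8 (3.52%) and 0 (3.93%) in surface-gated mesothelial cells of GFPlo.

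Bnip3 (chr7:138890836-138909519, minus strand) encodes a mitochondrial outer membrane protein of mitophagy and cell death. It had 20.1 CPM (19.0 to 21.3) in macrophages, 18.5 and 18.7 in fibroblasts, 29.9 and 27.8 in mesothelial cells, and 22.3 and 29.8 in endothelial cells of GFPhi and GFPlo. Lower levels were found in lymphatic endothelial cells, with 12.4 (5.92 to 22.7) and 15.0 CPM (9.52 to 22.5), and in mural cells, with 8.84 CPM (4.04 to 16.8). Mesothelial cells were 1.5 times the other gated cells in both libraries (1.33 to 1.70 in GFPhi, 1.36 to 1.65 in GFPlo), short of a call. The only called value was in T and NK cells, with 8 UMIs, 3.63 CPM (1.57 to 7.16) and 0.174 times (0.075 to 0.343) the others.

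Hilpda (chr6:29272488-29275446, plus strand) encodes a small lipid droplet protein that inhibits the lipase encoded by Pnpla2, so that triglyceride is kept. Macrophages of GFPhi had 145 CPM (142 to 148), and no other class in either library with at least 50 cells exceeded 35.4 CPM. Mural cells had 35.4 CPM (24.8 to 49.0), GFPhi lymphatic endothelial cells 34.6 (23.0 to 50.0) and mesothelial cells 31.3 and 29.5, and these overlapped. Fibroblasts had 28.4 and 23.7 CPM, T and NK cells 24.1, and endothelial cells 24.3 and 14.1. Macrophages were 4.91 times (4.52 to 5.34) the other gated GFPhi cells. Macrophage RNA at the level of the macrophage markers in the other GFPhi classes would carry 1.70 to 3.08 CPM of Hilpda. Fibroblasts and mesothelial cells had close values in both libraries, while endothelial and lymphatic endothelial cells had more in GFPhi than in GFPlo. The part of macrophage RNA in these values was not tested. The 38 GFPlo macrophages held 8 Hilpda UMIs, 39.1 CPM (16.9 to 77.1).

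Within macrophages Hilpda followed the lipid-associated gate. Lipid-associated cells had 250 CPM (242 to 259), or 294 CPM (279 to 310) where they also passed the Gdf15 Cxcr4 gate, which are 2.15 times (2.06 to 2.24) and 2.22 times (2.10 to 2.35) the other macrophages. The other macrophages of the former ratio include the cells of both gates, and those of the latter include the cells of the lipid-associated gate alone. Gdf15 Cxcr4 cells had 163 CPM, cells in no subset gate 101, cycling cells 88.2, MHC class II cells 57.1 (52.0 to 62.5) and resident cells 46.4 (40.9 to 52.6). The last pair touch, and resident cells were 0.300 times (0.263 to 0.340) the rest. The resident gate needed at least 2 of Cd163, Folr2, Timd4, Cbr2 and F13a1. Of these, F13a1 was also among the leading genes of the whole GFPhi macrophage class. A Hilpda UMI was found in 50.9% of lipid-associated and 13.5% of resident cells, with medians of 9928 and 6430.5 UMIs, and in 15.3% and 2.14% after thinning each cell to 1000 UMIs. Endothelial cells of GFPlo, where the gene was lowest, had 2.03% after thinning. The droplet coat gene Plin2, at 798 CPM, was 1.96 times (1.92 to 2.01) higher in lipid-associated cells than in the other macrophages. Pnpla2 was 1.92 times (1.73 to 2.12) higher in macrophages, while G0s2, a further inhibitor of that lipase, was at 0.829 CPM and 0.0155 times (0.0115 to 0.0206) the others. In the surface-gated mesothelial cells of GFPhi Hilpda was 0.358 times (0.245 to 0.509) the other mesothelial cells, the only 1 of 8 members lower there (3.15% of genes), with 0 higher (1.91%). In GFPlo the surface ratio was 0.602 (0.426 to 0.830), not called.

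Adm (chr7:110627661-110629820, plus strand) encodes adrenomedullin, a peptide that dilates vessels, tightens endothelium and is needed for lymphatic growth. GFPhi lymphatic endothelial cells had 97.6 CPM (77.2 to 122) and those of GFPlo 35.3 CPM (26.5 to 46.0), with no overlap. Next came endothelial cells, whose GFPhi level overlapped that of GFPlo lymphatic cells, with 27.6 CPM (19.9 to 37.3) and 17.0 CPM (12.7 to 22.1), and mural cells with 18.7 (11.2 to 29.2), all overlapping, then fibroblasts with 10.8 (8.46 to 13.6) and 10.5 (9.70 to 11.3), which overlap the mural level. Mesothelial cells had 1.01 and 3.23 CPM and macrophages 0.602 CPM (0.424 to 0.829). Lymphatic endothelial cells were 48.6 times (36.7 to 64.0) the other gated cells in GFPhi, which are mostly macrophages, and 3.97 times (2.95 to 5.22) in GFPlo, which are mostly fibroblasts. Endothelial cells were 11.1 times (7.77 to 15.6) the others in GFPhi and 1.87 times (1.40 to 2.47) in GFPlo, the latter not called. GFPhi fibroblasts were 4.80 times (3.60 to 6.36) and GFPlo mesothelial cells 0.293 times (0.226 to 0.376) the others.

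The Adm counts were small and uneven between cells. The GFPhi lymphatic level rests on 79 UMIs in 16.7% of 78 cells, and the GFPlo level on 54 UMIs in 9.69% of 227 cells. A single GFPhi cell held 25 of these UMIs and a single GFPlo cell 10. Without the cell with most Adm UMIs on either side the lymphatic ratios to the other cells were 36.6 (26.3 to 50.3) and 3.31 (2.38 to 4.48). Inside the endothelium, endocardial cells had little Adm, 7.47 CPM (2.03 to 19.1) in GFPhi and 7.86 CPM (4.49 to 12.8) in GFPlo, 0.194 times (0.050 to 0.538) and 0.238 times (0.124 to 0.436) the other endothelial cells. In GFPlo a stricter gate took this to 0.672 (0.264 to 1.66), which is not a call. Capillary and angiogenic cells of GFPlo had 23.3 CPM (11.7 to 41.8), and the 103 GFPlo endothelial cells in no subset gate had 51.9 CPM (31.7 to 80.2) from 20 UMIs, in 6.80% of the cells. In GFPlo fibroblasts Adm was 12.0 CPM in activated myofibroblast and 12.1 in progenitor cells, 2.42 CPM (0.785 to 5.64) in tendon-like scar cells, 4.80 (3.45 to 6.51) in cells of both the scar and the myofibroblast gate, and 4.33 (2.80 to 6.39) in cycling cells. The ratios of the last 3 to the other fibroblasts were 0.225 (0.073 to 0.528), 0.425 (0.302 to 0.583) and 0.392 (0.252 to 0.583).

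The receptor of adrenomedullin is Calcrl paired with Ramp2 or Ramp3. All 3 genes were higher in endothelial cells of both libraries, Calcrl at 277 and 260 CPM, 21.3 times (19.0 to 23.9) and 14.4 times (13.3 to 15.7) the others, and Ramp2 39.8 times (37.5 to 42.3) and 8.20 times (7.92 to 8.49). Ramp3 had 25.0 and 12.9 CPM there. In lymphatic endothelial cells Calcrl (27.0 and 12.1 times) and Ramp2 (34.9 and 7.30 times) were higher, and Ramp3 stayed below 10 CPM. Ramp1, which pairs with Calcrl to form another peptide's receptor, was lower in both endothelial classes and 3.69 times (3.26 to 4.18) higher in macrophages. Among classes of at least 50 cells Adm, Calcrl and Ramp2 were each highest in GFPhi lymphatic endothelial cells.

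**Figure D4:**
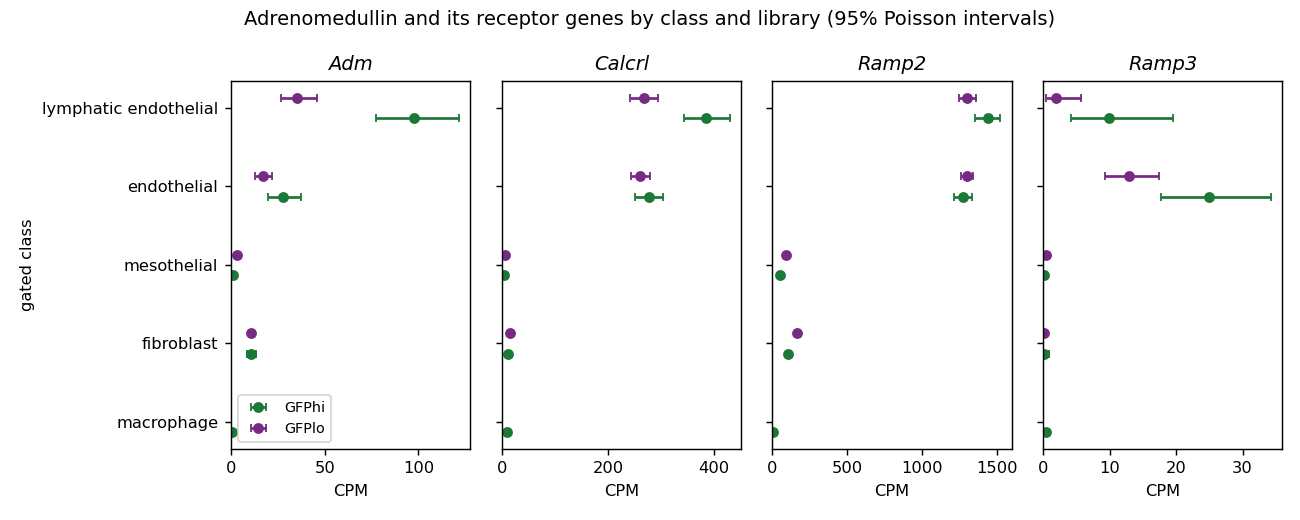
CPM of Adm and the receptor genes Calcrl, Ramp2 and Ramp3 by class, GFPhi in green and GFPlo in purple, with 95% Poisson intervals. Adm is highest in GFPhi lymphatic endothelial cells at 97.6, and Calcrl and Ramp2 are high in both endothelial classes of both libraries.

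The comparison of GFPhi with GFPlo cells of the same class asks whether cells that had expressed p16 differ in these genes. In fibroblasts 0 of 9 measured members were higher in GFPhi (1.00% of genes) and 0 lower (0.955%), with a median member ratio of 1.16 against 0.94 for all genes. In mesothelial cells 0 of 8 were higher (2.24%) and 0 lower (2.99%), with 1.02 against 0.94. Endothelial cells had 0 of 9 higher (2.80%) and 0 lower (2.37%), with 1.39 against 0.98, and lymphatic endothelial cells 1 of 10 higher (0.811%) and 0 lower (1.82%), with 0.86 against 1.01. Within the same subset, 0 of 8 were higher (0.583%) and 0 lower (0.385%) in myofibroblast cells, 0 of 8 (0.862%) and 0 (1.31%) in surface-gated mesothelial cells, and 0 of 7 (0.667%) and 0 (0.414%) in endocardial cells. In fibroblasts the intervals of Ldha (1.06, 1.01 to 1.11), Pgk1 (1.16, 1.07 to 1.26), Aldoa (1.16, 1.10 to 1.22), Eno1 (1.25, 1.19 to 1.32) and Hk2 (1.18, 1.10 to 1.26) keep any difference under 1.5-fold within counting error. Slc2a1 had the largest fibroblast ratio, 1.63 (1.27 to 2.06), not called. In activated myofibroblast cells Slc2a1 was at 6.63 CPM (3.53 to 11.3) in GFPhi and 7.37 CPM (6.27 to 8.61) in GFPlo. In fibroblasts of no subset gate it was at 18.9 CPM (13.5 to 25.7) in GFPhi and 7.75 CPM (6.47 to 9.21) in GFPlo. The part of the subset mix in the fibroblast ratios was not tested. In endothelial cells Slc2a1 was 2.02 (1.17 to 3.49), Hilpda 1.72 (1.08 to 2.72), Adm 1.63 (1.06 to 2.48) and Pgk1 1.46 (1.20 to 1.77), all wide and not called. A stricter gate raised the endothelial Adm ratio to 3.07 (1.78 to 5.39), which would be called. Endocardial cells were 50.3% of GFPhi and 68.4% of GFPlo endothelial cells, and within them Slc2a1 and Adm were below 10 CPM in both libraries. The part of this mix in the endothelial ratios was not tested.

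The called value was Adm in lymphatic endothelial cells, 2.77 times (1.93 to 3.99) higher in GFPhi. Without the cell with most Adm UMIs in each library it was 2.33 times (1.53 to 3.55), and without cells holding 2 or more cycling markers 1.98 times (1.34 to 2.94), no longer called. Cycling markers summed to 413 CPM in the GFPhi and 969 CPM in the GFPlo lymphatic cells. Of the glycolytic members, Pgk1 (0.601, 0.452 to 0.792), Ldha (0.703, 0.586 to 0.841) and Eno1 (0.759, 0.637 to 0.901) lay lower in these GFPhi cells, not called, and Ldha came to 0.933 (0.742 to 1.17) without the cycling cells. GFPhi fibroblasts and mesothelial cells were also deeper, with medians of 17231 and 26795.5 UMIs against 8411 and 14691.5 in GFPlo. Beyond ratios recomputed without cycling cells and after thinning, the part of depth and of cycling cells was not tested.

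**Figure D5:**
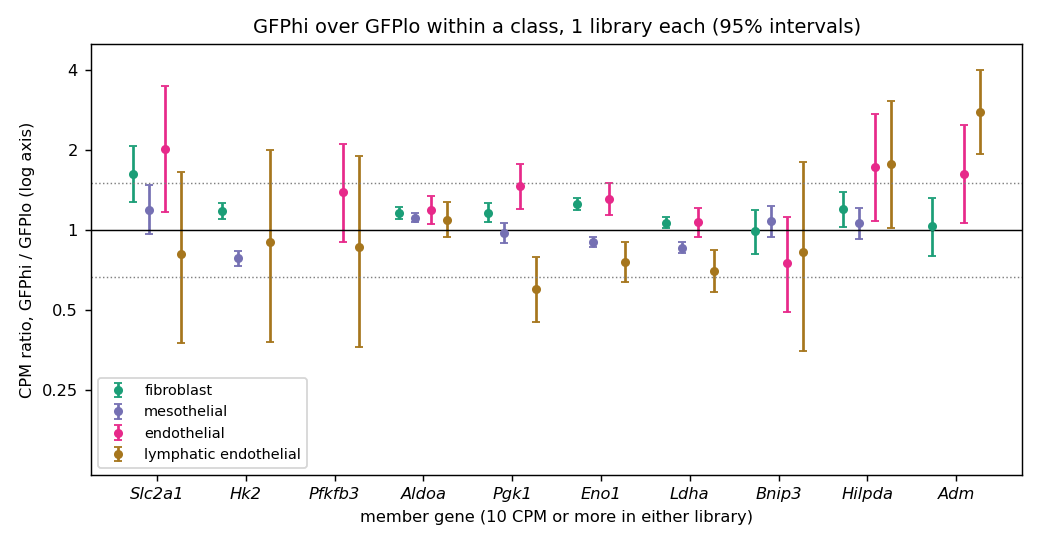
Ratio of CPM in GFPhi to GFPlo cells of the same class on a log axis, for members with at least 10 CPM in either library, with 95% intervals and dotted lines at 1.5-fold. The Adm value of lymphatic endothelial cells, 2.77, is the 1 whose interval lies wholly beyond a dotted line.

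Other genes of these pathways, from lists chosen with earlier results of these data known, set the members in context. Hif1a and Epas1, which encode the oxygen-regulated subunits of HIF-1 and HIF-2, were higher in endothelial cells, Hif1a 4.33 times (3.88 to 4.80) in GFPhi and 2.21 times (2.03 to 2.39) in GFPlo, and Epas1 15.8 times (13.1 to 18.9) and 5.29 times (4.72 to 5.91). These were 2 of 6 and 2 of 7 measured oxygen-sensing genes, where 27.1% and 17.1% of all genes were higher, with 0 lower (12.6% and 11.3%). Resident macrophages had 3 of 4 higher (16.2%) and 0 lower (4.53%), namely Hif1a (1.72 times, 1.55 to 1.91), Arnt (1.87 times, 1.62 to 2.15) and Egln1 (2.11 times, 1.70 to 2.60), while Hilpda and Aldoa were lower there. Of 22 further targets of the hypoxia-inducible factors, 4 of 18 measured were higher in macrophages (16.4% of all genes) and 11 lower (33.9%), among them Arg1 (24.6 times, 19.7 to 31.1), which splits arginine, and Loxl2 (0.00768 times, 0.00607 to 0.00960), which crosslinks collagen. In lipid-associated cells 3 of 13 were higher (1.90% of all genes) and 2 lower (12.5%). The higher were Plin2, Bnip3l (1.86 times, 1.78 to 1.95) and Hmox1 (1.84 times, 1.80 to 1.89), and the lower were Arg1 (0.085 times, 0.071 to 0.101) and Kdm3a (0.507 times, 0.418 to 0.610), the last chosen after its values were seen. Mesothelial cells had high Egln3, an oxygen-dependent prolyl hydroxylase, at 65.6 CPM in each library and 25.1 times (21.3 to 29.6) and 13.6 times (12.1 to 15.3) the others. In GFPhi 1 of 6 measured oxygen-sensing genes was higher there (25.7% of all genes) and 0 lower (19.0%). In GFPlo 1 of 7 was higher (12.6%) and 1 lower (14.3%). Mesothelial cells also had high lactate transporters, Slc16a1 24.7 times (21.9 to 27.9) and 8.45 times (7.70 to 9.28) and Slc16a3 2.42 times (2.18 to 2.68) and 2.27 times (2.09 to 2.45), and high Ldhb, 6.64 times (6.12 to 7.21) and 6.36 times (5.98 to 6.77). Ldha, the other subunit of that enzyme, was even there. Between GFPhi and GFPlo the haem oxygenase gene Hmox1 was 2.29 times (2.09 to 2.51) higher in fibroblasts and 6.63 times (5.20 to 8.51) in endothelial cells, and G0s2 was 0.613 times (0.567 to 0.662) and 0.383 times (0.339 to 0.433). Hmox1 had 561 CPM in macrophages, which GFPhi holds in number, and the part of macrophage RNA in these Hmox1 ratios was not tested.

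Across 29 populations of at least 50 cells, log2(CPM + 1) of each of 5 members was set against 6465 genes, and the genes most like it were taken. The populations share libraries and depth, and some share a class, so the coefficients are descriptive. For Hilpda these were Atp6v0d2 (Pearson r = 0.91), Adam8 (0.91) and Gdf15 (0.90), the last a gate marker. For Adm they were Gng11 (0.93), Ntan1 (0.92) and Tspan12 (0.91). For Ldha they were Banf1 (0.89), Ubl4a (0.89) and Eif5a (0.87), for Slc2a1 Llph (0.84), Baz1a (0.82) and Txnrd1 (0.77), and for Bnip3 Tmem205 (0.74) and Fuca1 (0.72). Among the members themselves the highest coefficients were Ldha with Pgk1 (0.73), Aldoa with Hilpda (0.64) and Pgk1 with Eno1 (0.63), and the lowest was Ldha with Bnip3 (−0.57).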

How the data were processed

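Single-cell RNA of infarct cells was sequenced as 3′ droplet libraries with a SeekOne DD kit, per the labels' protocols, while another label field names 10x Genomics. The values are raw UMI counts per gene and cell, as deposited, on build mm10 per the submitters' processing notes; the aligner, counter and cell caller were not given in the sources used here. These deposited counts were read with Python 3.11.15, numpy 2.4.6, scipy 1.17.1 and pandas 2.3.3, and plots were drawn with matplotlib 3.10.9. Cells with at least 300 genes, 500 UMIs and at most 20% mitochondrial UMIs were kept. Classes and subsets were gated on marker UMIs, at minimums set after marker counts were seen. Macrophages and fibroblasts needed 5 distinct markers and 10 marker UMIs, other classes 3 and 5, and cycling cells 3 of 5 markers. Subset labels were exclusive, so cells passing several subset gates formed groups of their own, and cycling cells were in no other subset. In a subset ratio, the other cells of the class include all of these. No member of the gene set is a marker. Doublets were not called; 144 GFPhi and 7 GFPlo cells held at least 5 macrophage and 5 fibroblast markers.

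Counts were summed over the cells of a population, so deep cells weigh more, and given as CPM. Genes were named as follows: all 10 members, at most 4 called genes per list and comparison by the nearer bound of the interval, and the 3 genes most like each of 5 members, of which 1 is not reported here. The members and all lists were chosen with earlier results of these data known. Alternatives were median-of-ratios scaling, stricter gates and cell filters, leaving out cells with 2 or more cycling markers, thinning to 1000 UMIs, and a minimum of 50 CPM. Leaving out the cell with most UMIs of the gene on either side was chosen after seeing the data. The calculations were tested on simulated data.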

Additional observations from a re-analysis of the deposited data

How the results depend on the processing

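No called single-gene ratio reversed in the alternatives computed for it. Median-of-ratios scaling, which moved the median gene by over 0.1 on the log2 scale in the macrophage, endothelial, lymphatic and T and NK comparisons, kept the call of all 15 main ratios, as did the stricter cell filter, the stricter gate and leaving out the cell with most UMIs of the gene on either side. Thinning to 1000 UMIs kept 9 of 14. The Hk2 ratio of GFPhi endothelial cells could not be computed, because 0 of 179 thinned cells there held an Hk2 UMI. Thinning ended the calls of Adm in GFPlo lymphatic endothelial cells (2.26), Pfkfb3 in macrophages (2.90) and resident macrophages (1.92) and Pgk1 in cycling mesothelial cells (2.10), where few UMIs remain. The Adm ratio of GFPhi to GFPlo lymphatic endothelial cells was 3.97 when thinned and 1.98 without cycling cells, both not called, so that 0 members were then higher. Among endothelial cells a stricter gate gave 1 member higher in GFPhi. Without cycling cells there is no value for the cycling subsets. Of the glycolytic enzymes, those higher in GFPlo endocardial cells came to 0 without cycling cells, when thinned and at a minimum of 50 CPM, and in GFPhi to 1 under the stricter gate. Those lower in GFPhi endocardial cells came to 0 without cycling cells and when thinned, and in GFPlo to 0 when thinned. When thinned, 2 were higher in cycling fibroblasts, 1 in cycling mesothelial cells, and 3 lower in MHC class II macrophages; with median-of-ratios scaling 1 was lower in cycling macrophages. The other single-gene ratios include uncalled ratios of GFPhi to GFPlo, which had no call to lose, so the totals below are not totals of calls. When thinned, 29 of 73 lost their call and 24 uncalled ratios left their own interval. Without cycling cells 7 of 67 lost it and 4 left the interval, under the stricter gate 2 of 75 and 6, and with the other scaling 4 of 76 and 0. No paired analysis was possible because each group has 1 library.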
